A study of Mus musculus with 4 samples.

Results

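Mouse liver was examined here for 36 genes of fatty acid oxidation and ketone body synthesis, taken by symbol from a table of 54532 genes. Each symbol matched 1 row, and all 36 passed the filter on low counts, which 13403 genes of the table passed. RNA of livers from C57BL/6 mice was sequenced in 2 groups of 2 libraries. The group HFD (libraries 334 and 335) carries that label alone; the letters usually stand for a high-fat diet in mouse liver work. The group I3A (libraries 303 and 305) was given I3A on top of HFD, and no label spells the abbreviation I3A out. HFD is thus shared by both groups, and no liver without it was analysed here. The labels give neither the ages of the mice nor the dose or length of the treatments. By its title the series concerns the respiration of liver mitochondria in a model of fatty liver disease.

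Fatty acids are broken down in liver by beta-oxidation, a cycle of oxidation, hydration, a second oxidation and cleavage that shortens an acyl-CoA and releases acetyl-CoA. Mitochondria take most long-chain fatty acids, which enter as carnitine esters; peroxisomes shorten very long and branched chains and the precursors of bile acids. In fasting, liver turns part of the acetyl-CoA into ketone bodies for other organs. Many of these genes are known targets of PPARalpha, a nuclear receptor that binds fatty acids.

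The libraries held 15005668 to 18255623 counts, and 1 count was worth 0.0581 to 0.0651 CPM, the share of the library's counts on a common scale after TMM scaling. The 6 hepatocyte markers summed to 81689 to 90748 CPM with none at 0. Alb gave 52543 to 57566 CPM of this. Single markers moved more than the sum. Cps1 measured 2538 and 2770 CPM in HFD and 4642 and 7102 CPM in I3A livers. Apoa1, Serpina1a and Apob were also higher in both I3A livers. Ttr was lower there, at 3409 and 3052 CPM against 4098 and 3575 CPM in HFD livers. Library HFD 335 also held transcripts of other tissues. Its 15 skeletal muscle markers summed to 968 CPM against 0.911 to 1.03 CPM in the other libraries, where 10 to 14 of the 15 were at 0. Its 5 adipocyte markers summed to 60.4 CPM against 0.0581 to 0.716 CPM, and its 11 exocrine pancreas markers to 187 CPM against 12.8 to 24.9 CPM. Cpt1b, the muscle form of the carnitine acyltransferase of the outer mitochondrial membrane, stood at 0.425 CPM in HFD 335 and at 0.260 to 0.349 CPM elsewhere. Library I3A 305 was lowest in markers of sinusoidal endothelium (49.4 CPM against 125 to 203 CPM) and of stellate cells (52.6 CPM against 154 to 352 CPM). The 352 CPM of HFD 335 included 105 CPM of Des, also a muscle marker, which measured 2.27 to 4.03 CPM elsewhere. Markers of cholangiocytes were highest in I3A 305 (74.0 CPM against 37.1 to 58.2 CPM), where Spp1 gave 60.2 CPM of them. In such bulk samples fewer cells of a type and less RNA per cell cannot be told apart.

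Sequence bears on the members in 2 places. Acaa1a and Acaa1b encode the thiolases that make the last cut of peroxisomal beta-oxidation, and they are near copies on chromosome 9. Their coding sequences, taken from the GENCODE transcripts of build GRCm38, both span 1272 bases without the stop codon and were identical at 1228 of them (96.5%). The longest identical stretch ran over 327 bases. The 100 coding bases that differ most (positions 453 to 552 from the start codon) are shown to let the reader see how little tells the 2 messages apart; capitals mark the 14 positions at which they differ.
Acaa1a: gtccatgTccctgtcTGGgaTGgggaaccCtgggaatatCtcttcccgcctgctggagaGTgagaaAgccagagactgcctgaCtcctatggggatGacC
Acaa1b: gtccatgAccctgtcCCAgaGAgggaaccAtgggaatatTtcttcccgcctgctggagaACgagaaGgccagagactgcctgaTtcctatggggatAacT
Of the 50-base words in Acaa1b transcripts 39.6% also occur in other genes, mostly in Acaa1a, and of those in Acaa1a transcripts 17.1%. The counting of reads that fit both genes is not described, and the split between them is uncertain to that extent.

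Hadha and Hadhb, the subunits of the mitochondrial trifunctional protein, lie head to head on chromosome 5. In the deposited table the minus-strand gene model of Hadha ends 85 bases before the plus-strand model of Hadhb begins. The stretch between them, shown because a gene model begins at either end of it, was read from the RefSeq promoter table (GRCm38.p6, chr5:30155163-30155247, plus strand).
Hadha-Hadhb: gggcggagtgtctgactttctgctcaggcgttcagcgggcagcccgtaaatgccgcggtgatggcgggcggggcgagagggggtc
Promoter windows of 300 bases (250 before to 50 after a start site) were found in that table for 29 of the 36 members. Neither a direct repeat of AGGTCA with 1 base between its copies, the element that PPARalpha binds with its partner RXR, nor its looser form with AGGNCA in place of AGGTCA, which includes the first, nor TNAAGGTCA, the site of the estrogen-related receptors, occurred on either strand of the 32 windows of these genes. Over all 32851 windows the shares with a match were 0.0396%, 0.381% and 1.28%. At shares this low, 32 windows of any genes would most often hold no match. The search therefore cannot tell whether these genes carry such sites. Bases outside the windows and sites that depart from these words were not searched.

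Most of the genes stood level between the groups. The median log2 fold change (I3A over HFD) of the 36 was -0.015, with quartiles of -0.084 and 0.044, and 31 lay within 0.3 of 0. Over all tested genes the median was -0.010, the quartiles -0.23 and 0.18, and 62.7% lay within 0.3. At the head of the list, 3 members were higher in I3A livers at an unadjusted p under 0.05 in edgeR's quasi-likelihood test: Cpt1a, the entry enzyme of mitochondria; Echs1, the hydratase of the cycle; and Crot, which prepares peroxisomal products for export. Pex11a, a peroxisomal membrane protein that drives division of the organelle, was lower. Past an adjusted p of 0.05 there were 0 of 36, the smallest being 0.3005, and 0 of the 13403 tested genes (0%). DESeq2 called 0 of the 36 as well (smallest adjusted p 0.0583), against 3.34% of all genes with an adjusted p, and limma-voom 0.

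The 4 of 36 at an unadjusted p under 0.05 stand beside 12.9% of all tested genes; for higher values the counts were 3 of 36 beside 6.66% and for lower values 1 of 36 beside 6.24%. Both I3A livers lay above both HFD livers in 6 members (23.1% of all tested genes) and below them in 6 (22.5%). These 12 of 36 stand beside 45.5% of all tested genes. The higher were Cpt1a, Acadvl, Echs1, Etfdh, Scp2 and Crot, the lower Cpt2, Hadh, Acaa2, Eci1, Pex11a and Acaa1b. The margin can be thin: Acaa1b measured 1950 CPM in I3A 303 and 1952 CPM in HFD 334. With single libraries left out, the log2 fold changes of the 4 kept their signs. They ran from 0.31 to 0.52 for Cpt1a, 0.35 to 0.54 for Crot and 0.22 to 0.27 for Echs1. Pex11a moved most, from -1.01 to -0.30. The number of members under the threshold changed more, with fewer libraries left to set the spread. Leaving out HFD 334 also left HFD 335, with its markers of other tissues, as the only HFD library. Without HFD 334 the number was 0 (all tested genes 14.7%), and without HFD 335, the library with markers of other tissues, 1, Crot (10.1%). Without I3A 303 it was 10, of which 4 higher and 6 lower (11.2%), and without I3A 305 3, namely Cpt1a, Crot and Ehhadh (5.44%). In these 4 fits 0 of 36 passed the adjusted threshold, beside 2.36%, 0.152%, 0.298% and 0% of all tested genes in the same order; the group left with 1 library was assumed to vary like the other. By library size alone it was 2 (14.2%).

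**Figure D1:**
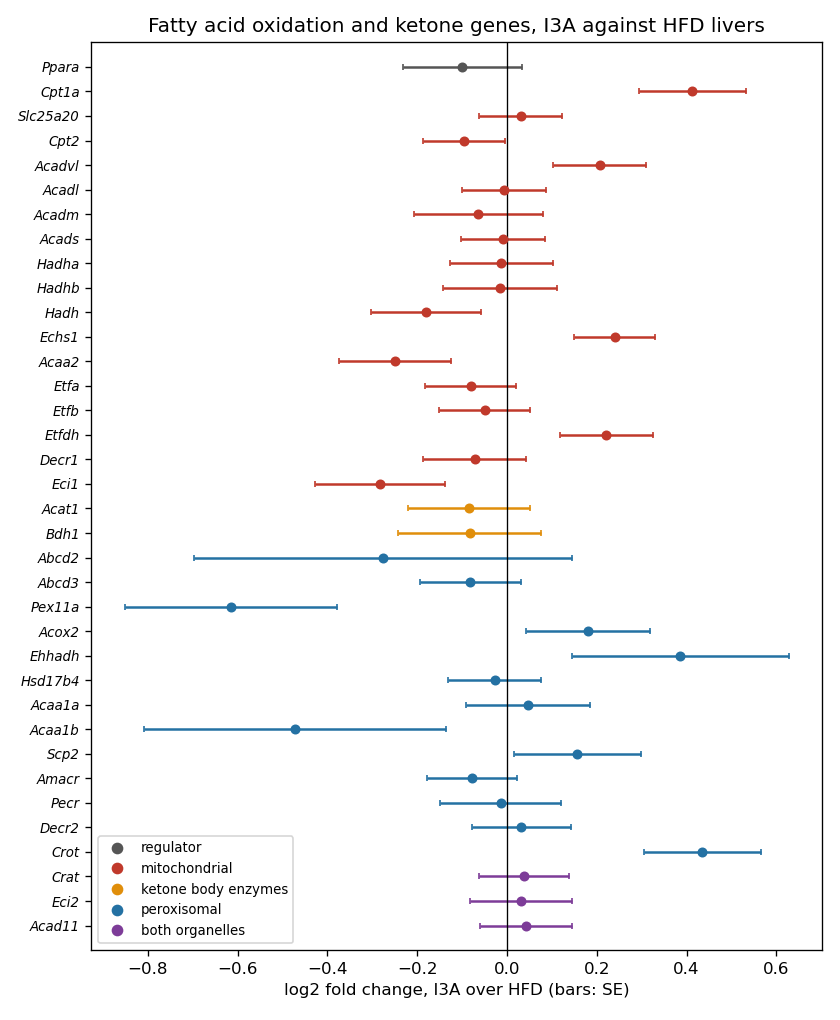
Log2 fold change of I3A over HFD livers (x axis) for the 36 genes (y axis, in order of their roles), with bars for the SE of edgeR's fit and colours for the place of the enzyme. Cpt1a, Crot and Ehhadh stand furthest to the right at 0.41, 0.44 and 0.39, Pex11a and Acaa1b furthest to the left at -0.62 and -0.47.

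Ppara, the gene of the receptor itself, measured 179 and 145 CPM in HFD and 159 and 144 CPM in I3A livers. HFD 334 was highest, and HFD 335 and I3A 305 were nearly equal, so the groups overlapped (log2 fold change -0.10 ± 0.13 (SE), edgeR unadjusted p = 0.486 and adjusted p = 0.790).

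Cpt1a (chromosome 19, 3323301 to 3385732, plus strand) encodes the carnitine palmitoyltransferase of the outer membrane, the step that sets how much fatty acid mitochondria admit. It measured 817 and 798 CPM in HFD and 1005 and 1146 CPM in I3A livers. Both I3A livers were above both HFD livers, and the HFD livers differed little (808 ± 13.0 CPM against 1075 ± 99.5 CPM (SD, n = 2); log2 fold change 0.41 ± 0.12 (SE), edgeR unadjusted p = 0.0152 and adjusted p = 0.3005). The I3A mean was 1.33 times that of HFD, and with single libraries left out the log2 fold change ran from 0.31 to 0.52. Without HFD 335 it was 0.40. The partners of Cpt1a in carnitine entry stood level. Slc25a20, the carrier that brings acylcarnitines across the inner membrane, had a log2 fold change of 0.030 ± 0.093, and Cpt2, which releases the acyl-CoA inside, measured 263 and 255 CPM in HFD and 240.4 and 244 CPM in I3A livers (-0.10 ± 0.092). The ratio of Cpt1a to Cpt2 CPM was 3.10 and 3.13 in HFD and 4.18 and 4.69 in I3A livers, a comparison within each library.

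The acyl-CoA dehydrogenases start each turn of the cycle, each for its own range of chain lengths. Acadvl, for very long chains, measured 278 and 274 CPM in HFD and 301 and 335 CPM in I3A livers. Both I3A livers were higher, though by less than the test could call (log2 fold change 0.21 ± 0.10 (SE), edgeR unadjusted p = 0.0960 and adjusted p = 0.460). In all, 26.9% of the 50-base words of Acadvl transcripts also occur in other genes, all of these in Dvl2, whose exons overlap it on the other strand and whose counts came to 1.04% of those of Acadvl. Acadm, for medium chains, measured 674 and 603 CPM in HFD and 675 and 547 CPM in I3A livers, with 1 low library in each group and groups that overlapped (-0.064 ± 0.14). Acadl, for long chains, and Acads, for short ones, were level at -0.0058 ± 0.094 and -0.0084 ± 0.093.

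Hydration, the second oxidation and thiolysis follow. Echs1, the hydratase for short chains, measured 197 and 191 CPM in HFD and 229 and 229 CPM in I3A livers. The I3A livers were nearly equal and both were higher than both HFD livers (194 ± 4.06 CPM against 229 ± 0.105 CPM (SD, n = 2); log2 fold change 0.24 ± 0.090 (SE), edgeR unadjusted p = 0.0402 and adjusted p = 0.365). Exons of Echs1 overlap those of Paox on the other strand, whose counts came to 8.002% of those of Echs1; the library kit is not stated to mark strand. Acaa2, the mitochondrial thiolase, measured 1004 and 952 CPM in HFD and 885 and 759.7 CPM in I3A livers, lower in both I3A livers without passing the test (log2 fold change -0.25 ± 0.13 (SE), edgeR unadjusted p = 0.0972 and adjusted p = 0.461). Hadh, the dehydrogenase for medium and short chains, was placed the same way (-0.18 ± 0.12, groups not overlapping).

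The trifunctional protein carries out these steps for long chains. Its gene Hadha measured 656 and 615 CPM in HFD and 665 and 595 CPM in I3A livers, and the groups overlapped (-0.013 ± 0.11). Hadhb, whose gene model begins at the other end of the stretch printed above, ranged from 309 to 371 CPM with a log2 fold change of -0.015 ± 0.13. I3A 305 was the lowest library for both genes, and the ratio of Hadha to Hadhb CPM lay between 1.72 and 1.99 in the 4 libraries.

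Electrons from the dehydrogenases pass through the flavoprotein of Etfa and Etfb to Etfdh, which hands them to the respiratory chain. Etfdh measured 459 and 435 CPM in HFD and 505 and 537 CPM in I3A livers, higher in both I3A livers (log2 fold change 0.22 ± 0.10 (SE), edgeR unadjusted p = 0.0800 and adjusted p = 0.436). Etfa (-0.081 ± 0.10) and Etfb (-0.049 ± 0.10) lay slightly below level with overlapping groups; 44.8% of the 50-base words of Etfb also occur in other gene models. Of the helpers for unsaturated acids, the isomerase Eci1 was lower in both I3A livers (-0.28 ± 0.14), with I3A 305 at 186 CPM and the rest at 241 to 265 CPM. The reductase Decr1 was level (-0.072 ± 0.12). Of the 17 mitochondrial members, 2 were higher and 0 lower at an unadjusted p under 0.05, beside 6.66% and 6.24% of all tested genes. Their log2 fold changes were positive in 5 and negative in 12, beside 6504 and 6899 of the 13403 tested genes.

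**Figure D2:**
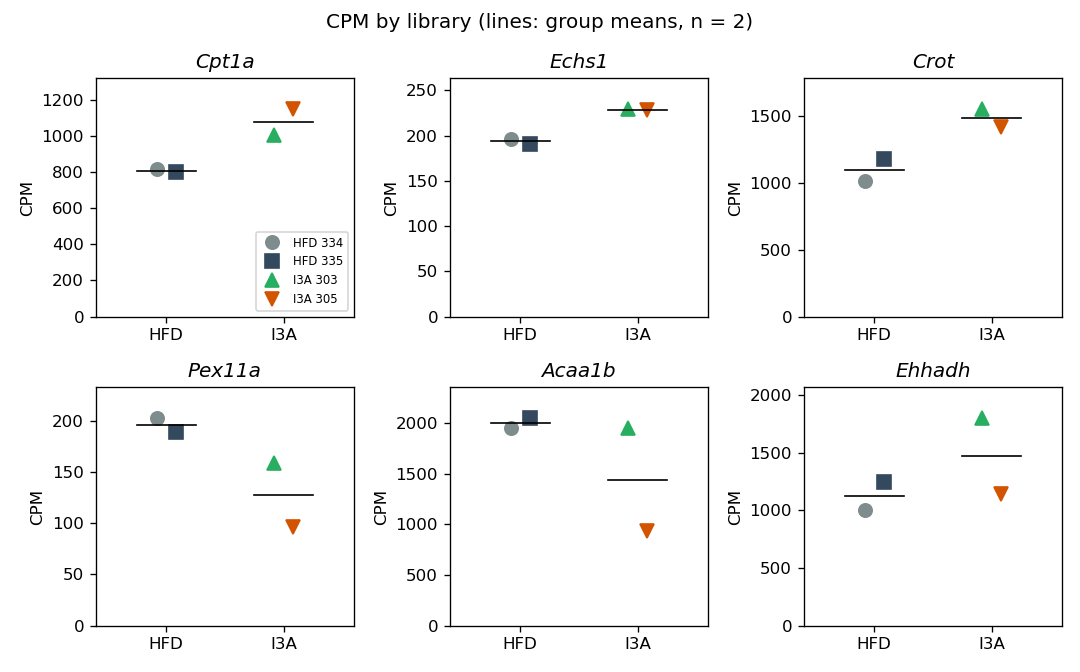
CPM (y axis, from 0) of 6 genes in each of the 4 libraries (points), by group (x axis), with lines for the group means. The 2 I3A points lie above both HFD points for Cpt1a, Echs1 and Crot, whereas for Acaa1b and Ehhadh the 2 I3A livers lie far apart.

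Ketone bodies arise in mitochondria when Acat1 joins acetyl-CoA units, and after further steps Bdh1 reduces acetoacetate to beta-hydroxybutyrate. Acat1 measured 787 and 673 CPM in HFD and 737 and 639.7 CPM in I3A livers. In each group 1 library was high and the other low, and the groups overlapped (-0.085 ± 0.14). Bdh1 measured 372 and 358 CPM in HFD and 395 and 294 CPM in I3A livers; the I3A livers bracketed both HFD livers (-0.083 ± 0.16). Neither passed the test (edgeR adjusted p = 0.828 for Acat1 and 0.858 for Bdh1). In the wider list of ketone genes, 1 of 4 tested was lower at an unadjusted p under 0.05 and 0 were higher, beside 6.24% and 6.66% of all tested genes. The lower one was the transporter Slc16a6 (-0.84 ± 0.26, adjusted p = 0.322 in edgeR). Slc16a6 measured 12.2 and 8.19 CPM in HFD and 5.40 and 5.98 CPM in I3A livers, and without HFD 334 its log2 fold change was -0.51.

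Peroxisomes import acyl-CoAs through the ABCD transporters and multiply with the help of Pex11 proteins. Pex11a (chromosome 7, 79735957 to 79743131, minus strand) measured 202 and 189 CPM in HFD and 159 and 96.0 CPM in I3A livers. Both I3A livers were lower, I3A 305 by far the more (195 ± 9.55 CPM against 128 ± 44.6 CPM (SD, n = 2); log2 fold change -0.62 ± 0.24 (SE), edgeR unadjusted p = 0.0436 and adjusted p = 0.371). Its log2 fold change was -0.30 without I3A 305 and -1.01 without I3A 303. Abcd3, the abundant transporter, measured 702 and 687 CPM in HFD and 692 and 619.5 CPM in I3A livers (-0.082 ± 0.11). Abcd2, its scarce relative, measured 7.09 and 6.01 CPM in HFD and 7.59 and 3.25 CPM in I3A livers. I3A 305 alone was low, at 56 counts against 99 to 118, and the sign turned to 0.21 without it.

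Among the peroxisomal oxidation enzymes Ehhadh and Acaa1b had the widest gaps in log2 CPM between the I3A libraries. In both, as in Acaa1a and Acox2, this gap was larger than the difference between groups. Ehhadh, the bifunctional enzyme for straight chains (chromosome 16, 21761287 to 21787807, minus strand), measured 1004 and 1245 CPM in HFD and 1796 and 1142 CPM in I3A livers. I3A 303 was the highest library and I3A 305 lay between the HFD livers (log2 fold change 0.39 ± 0.24 (SE), edgeR unadjusted p = 0.166 and adjusted p = 0.536); the log2 fold change was 0.67 without I3A 305 and 0.040 without I3A 303. Acaa1b (chromosome 9, 119148023 to 119157093, minus strand) measured 1952 and 2049 CPM in HFD and 1950 and 932 CPM in I3A livers. Here I3A 303 was level with HFD while I3A 305 held 2.09 times less than I3A 303 (log2 fold change -0.47 ± 0.34 (SE), edgeR unadjusted p = 0.213 and adjusted p = 0.591; -0.040 without I3A 305 and -1.08 without I3A 303). Acaa1a measured 366 and 361 CPM in HFD and 419 and 332 CPM in I3A livers and overlapped between groups (0.047 ± 0.14). The ratio of Acaa1b to Acaa1a CPM was 5.34 and 5.68 in HFD and 4.66 and 2.81 in I3A livers, subject to the sequence they share.

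Acox2, the oxidase for branched chains and bile acid precursors, measured 246 and 235 CPM in HFD and 240.5 and 305 CPM in I3A livers; I3A 305 alone was high (0.18 ± 0.14, and -0.0046 without it). Hsd17b4, the bifunctional enzyme that serves the same substrates, measured 699 and 659 CPM in HFD and 672 and 660.2 CPM in I3A livers and was level (-0.028 ± 0.10). So was Amacr, the racemase that readies them (-0.078 ± 0.10). Scp2, whose products are a sterol carrier and a thiolase for branched chains, was the most abundant member per length and lay slightly higher in both I3A livers (0.16 ± 0.14); 29.7% of its 50-base words also occur in Scp2-ps2, a pseudogene. The reductases for unsaturated acids, Pecr (-0.014 ± 0.13) and Decr2 (0.032 ± 0.11), were level.

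Crot (chromosome 5, 8966033 to 8997324, minus strand), the carnitine octanoyltransferase that turns shortened chains into esters that can leave the peroxisome, measured 1016 and 1175 CPM in HFD and 1547 and 1415 CPM in I3A livers. Both I3A livers were higher by more than the gap between the libraries of either group (1095 ± 112 CPM against 1481 ± 93.8 CPM (SD, n = 2); log2 fold change 0.44 ± 0.13 (SE), edgeR unadjusted p = 0.0178 and adjusted p = 0.311). The I3A mean was 1.35 times that of HFD, with log2 fold changes of 0.35 to 0.54 when single libraries were left out; DESeq2 gave an adjusted p of 0.0657, and 0.0583 for Cpt1a. The 3 members found in both organelles, the acetyl carnitine transferase Crat (0.038 ± 0.10), the isomerase Eci2 (0.032 ± 0.11) and the dehydrogenase Acad11 (0.043 ± 0.10), were level with overlapping groups. Exons of Crat overlap Dolpp1 on the other strand, whose counts came to 10.5% of those of Crat.

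Set against each other, mitochondrial and peroxisomal members did not separate. Their median log2 fold changes were -0.015 (17 genes) and -0.014 (13 genes), and the 2 ketone members had -0.084. Their spread differed: 16 of 17 mitochondrial but 9 of 13 peroxisomal members lay within 0.3 of 0, a difference that was not tested. Summed CPM of the mitochondrial genes was 6770 and 6480 in HFD and 6896 and 6522 in I3A livers. For the peroxisomal genes it was 12550 and 12400 in HFD and 13889 and 12480 in I3A livers, of which Scp2 gave the largest share; without Scp2 the sums were 6898, 7247, 8177 and 6147 CPM in the same order. The difference of mean log2 CPM, mitochondrial minus peroxisomal, was -0.33 and -0.33 in HFD and -0.40 and -0.17 in I3A livers. In this difference the I3A livers thus lay on either side of both HFD livers. Both means were lowest in I3A 305. For mitochondrial genes it had 8.25 against 8.27 to 8.34 in the other libraries, and for peroxisomal genes 8.42 against 8.60 to 8.74. Each gene weighs alike in such a mean, so the scarce Abcd2 counts as much as Scp2.

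Levels between genes were compared per length, as RPKM, the CPM divided by the deposited exon length in kilobases. Scp2 stood highest at 1482 to 1821 RPKM over the 4 libraries, then Acaa1b (475 to 1045), Acaa2 (501 to 663) and Ehhadh (337 to 602). These last 3 ranges overlapped in part, and their order was not the same in all libraries. Abcd2 was lowest at 0.547 to 1.28 RPKM, while every other member exceeded 21.2 RPKM. The deposited length of Cpt1a was 56.3%, that of Eci1 51.3% and that of Decr2 86.2% of the union of exons in GENCODE M21, and their RPKM would be lower on that union.

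**Figure D3:**
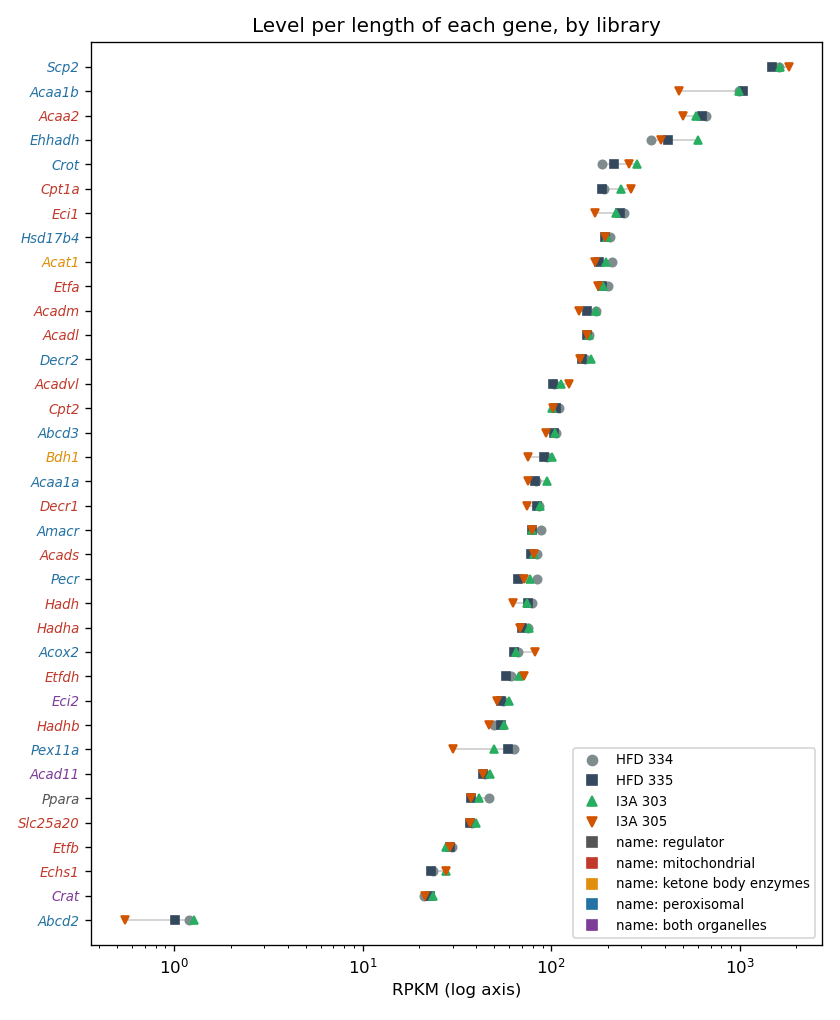
RPKM (x axis, log scale) of the 36 genes (y axis, by mean level) in each library (points); the colour of a name gives the place of the enzyme and a grey line joins the lowest and highest library. Most genes hold their 4 points close together; Acaa1b, Pex11a and Abcd2 show I3A 305 (triangles pointing down) apart to the left.

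The I3A livers differed more from each other in these genes than the HFD livers did, which is given without a test. The median gap between the 2 libraries of a group, in absolute log2 CPM, was 0.16 for I3A and 0.077 for HFD over the 36, while over all tested genes it was 0.21 and 0.21. The I3A gap was the larger in 26 of 36 members, beside 49.0% of all tested genes. I3A 305 was the lower I3A library in 27 of 36 (50.3% of all tested genes) and the lowest of the 4 libraries in 20 (28.7%). The log2 ratios of I3A 305 to I3A 303 were -1.22 for Abcd2, -1.07 for Acaa1b, -0.73 for Pex11a, -0.65 for Ehhadh and -0.43 for Bdh1, against 0.19 for Cpt1a and 0.34 for Acox2. Endothelial and stellate markers were lowest in I3A 305 as well. That match rests on I3A 305 alone, and any part of these cells in the values was not tested.

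**Figure D4:**
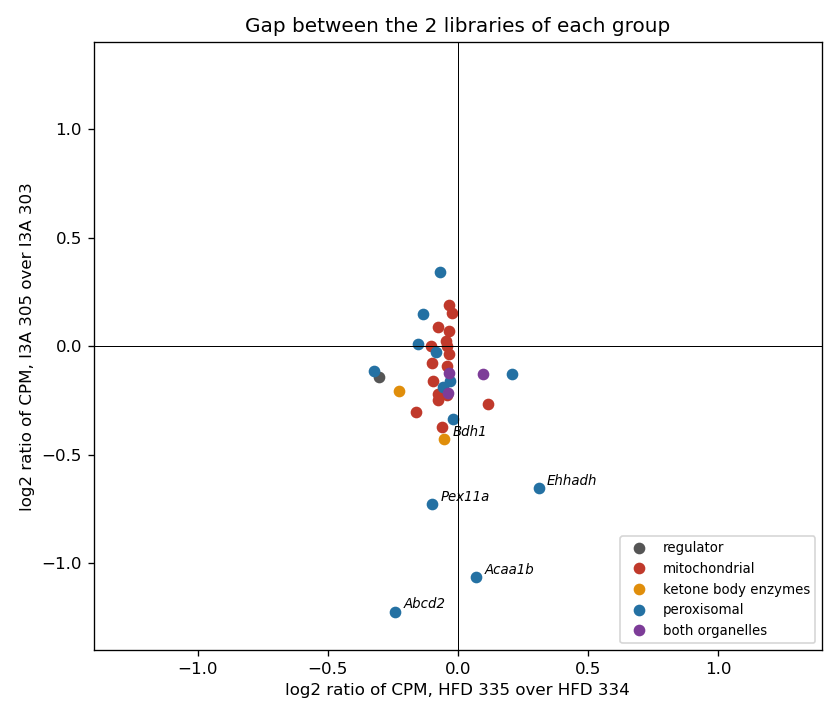
Log2 ratio of CPM between the 2 HFD libraries (x axis) and between the 2 I3A libraries (y axis) for the 36 genes (points, coloured by place). Points spread further along the y axis than along the x axis, with Abcd2, Acaa1b, Pex11a and Ehhadh lowest.

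Known targets of PPARalpha outside the 36 also stood lower in I3A 305 than in I3A 303, in 12 of 12 genes; I3A 305 was the lowest of the 4 libraries in 9. Of the 12, 1 was higher and 2 were lower at an unadjusted p under 0.05, beside 6.66% and 6.24% of all tested genes. In edgeR 0 passed the adjusted threshold, whereas DESeq2 called Cyp4a14 and Acot1. Cyp4a14, a fatty acid omega-hydroxylase, measured 1671 and 2266 CPM in HFD and 4307 and 3459 CPM in I3A livers (0.98 ± 0.20, edgeR adjusted p = 0.218, DESeq2 adjusted p = 8.46e-05). Acot1, a cytosolic acyl-CoA thioesterase, measured 174 and 170.2 CPM in HFD and 124 and 67.3 CPM in I3A livers (-0.85 ± 0.28, edgeR adjusted p = 0.332, DESeq2 adjusted p = 0.0470), and its log2 fold change was -0.47 without I3A 305 and -1.33 without I3A 303. Both have close relatives among mouse genes, and reads shared with these were not examined.

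Fgf21, a hormone secreted by liver in fasting, measured 82.1 and 19.7 CPM in HFD and 31.1 and 19.3 CPM in I3A livers (-1.01 ± 0.64); HFD 334 alone was high, and without it the log2 fold change turned to 0.37. Pdk4, the kinase that turns off pyruvate dehydrogenase and is also made by muscle, measured 8.46 and 86.0 CPM in HFD and 6.43 and 4.12 CPM in I3A livers. Its high value stood in HFD 335, the library with muscle and adipocyte markers, and without that library its log2 fold change of -3.17 became -0.68.

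**Figure D5:**
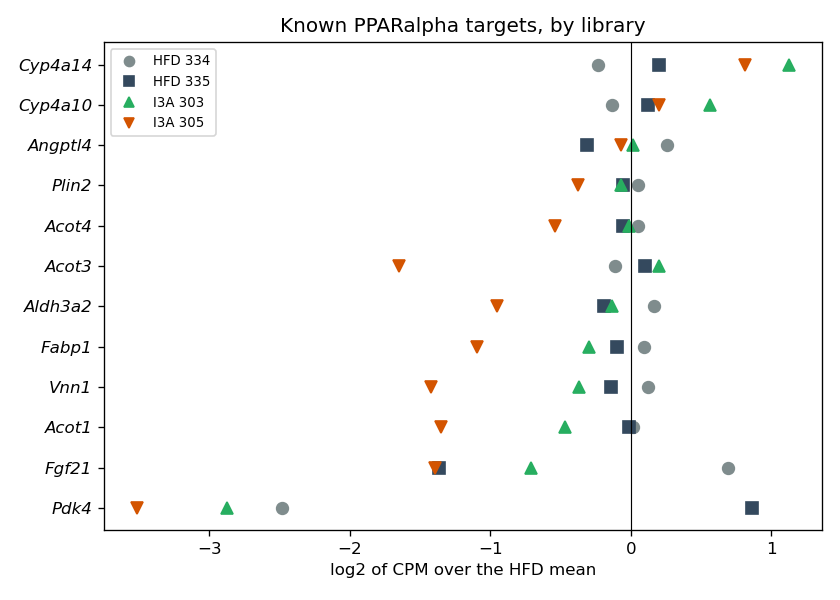
Log2 of CPM over the HFD mean (x axis) for 12 known targets of PPARalpha (y axis) in each library (points). I3A 305 (triangles pointing down) lies left of I3A 303 (triangles pointing up) for all 12 genes.

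The remaining pathway genes were counted in the same test, again at an unadjusted p under 0.05. Over all tested genes 6.66% were higher and 6.24% lower at that threshold, which each count below stands beside. Of all 69 tested pathway genes that are no members, 7 were higher and 10 lower, together 17 of 69 beside the 12.9% of all tested genes given above, with 0 past the adjusted threshold in edgeR (smallest adjusted p 0.169). DESeq2 called 7 of the 68 with an adjusted p, where it called 3.34% of all such genes: Ppargc1a, Cyp4a14, Hsd17b10 and Hacl1 higher, and Lpin1, Acot1 and Nudt7 lower. limma-voom called 0. Without the filter on low counts edgeR called 8, these 7 and Pdk4. PPARalpha and its partners gave 1 higher and 1 lower of 13 tested, namely the coactivators Ppargc1a, which measured 6.83 and 9.10 CPM in HFD and 16.9 and 16.5 CPM in I3A livers (1.07 ± 0.19, DESeq2 adjusted p = 0.0100), and Lpin1, which is also a phosphatidate phosphatase (-0.76 ± 0.20, DESeq2 adjusted p = 0.0143, and -0.50 without I3A 303). Malonyl-CoA, the product of the acetyl-CoA carboxylases, blocks Cpt1. Genes of its control gave 0 higher and 2 lower of 5 tested: the carboxylase Acaca (-0.60 ± 0.21) and the decarboxylase Mlycd (-0.28 ± 0.092), which removes malonyl-CoA. Acaca measured 80.4 and 54.4 CPM in HFD and 48.7 and 40.0 CPM in I3A livers, and without HFD 334 its log2 fold change was -0.28. Acacb, the carboxylase at the mitochondrial surface, measured 30.0 and 42.4 CPM in HFD and 41.6 and 49.8 CPM in I3A livers and overlapped between groups (0.34 ± 0.19).

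Other mitochondrial oxidation genes gave 1 higher and 1 lower of 11 tested. Hsd17b10, a dehydrogenase of short branched chains, measured 205 and 190.3 CPM in HFD and 309.8 and 292 CPM in I3A livers (0.60 ± 0.10, edgeR adjusted p = 0.169, DESeq2 adjusted p = 4.01e-04), and Acsl1, which activates long-chain fatty acids, had a log2 fold change of -0.34 ± 0.13. Other peroxisomal genes gave 2 higher and 2 lower of 11 tested. The higher ones were Hacl1, the lyase of alpha-oxidation (0.84 ± 0.16, DESeq2 adjusted p = 0.00860) and Baat, which conjugates bile acids (0.40 ± 0.11). The lower ones were Nudt7, a hydrolase of coenzyme A (-0.69 ± 0.20, DESeq2 adjusted p = 0.0232), and Hao1, an oxidase of glycolate (-0.39 ± 0.13). Without HFD 334 these were -0.37 and -0.22. Peroxisome biogenesis gave 2 higher and 1 lower of 15 tested. Pex16 (0.35 ± 0.093) and Pex19 (0.23 ± 0.091), which place membrane proteins in the organelle, were higher and Pex6, an ATPase that recycles the import receptor, was lower (-0.31 ± 0.10).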

How the data were processed

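Total RNA was taken up in Trizol, and a NEBNext Ultra kit served for the libraries, per the labels' protocols. The submitters' processing notes name the build GRCm38, HISAT2 and featureCounts 1.5.0-p3. Annotation release, strandedness of counting and treatment of multi-mapped reads are not stated there. The authors deposited raw counts per gene, with gene symbols, positions and lengths (bases), for 4 libraries; in 32 of the 36 genes the deposited length equals the union of exons in GENCODE M21.

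Libraries were grouped by title. The labels do not say that each comes from its own animal, so p-values measure the spread between these libraries, which may be technical. Counts of libraries within a group were compared by chi-square over genes. Per degree of freedom it came to 30.0 in HFD and 29.4 in I3A livers, so none is the same library sequenced again. The value does not tell separate animals from separate preparations of the same liver. Numbers are not shared between groups and no label gives a batch.

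Counts were tested over all genes with edgeR 4.0.16 in R 4.3.3 (filterByExpr with a minimum of 10 counts, TMM scaling, quasi-likelihood fit with group as its term, 2-sided tests, Benjamini-Hochberg adjustment over 13403 genes at 0.05), after a check on simulated data. In that check edgeR recovered 21% of 200 genes changed 2-fold, with 15 false calls, and DESeq2 35.5%, with 23 false calls. For 4-fold changes it was 70% with 13 and 75% with 40. False calls were thus a larger share than the threshold allows. The largest member change was 1.53-fold (Pex11a), so 0 calls among the members do not show that they were unchanged. The biological coefficient of variation was 19.9%. An exact permutation test of 2 against 2 cannot go below p = 0.333. Each log2 fold change is given with the SE implied by the F statistic. Alternatives were 3 other scalings, 2 other filters, each library left out, DESeq2 1.42.0 and limma-voom (3.58.1).

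Members, roles and gene lists were chosen with earlier results of these data known. The values of every library are given for members with an unadjusted p under 0.05 and for those whose groups do not overlap with a log2 fold change of at least 0.3 in size. They are also given for 17 genes set down by name, some of which meet these rules too. Other pathway genes are named at an unadjusted p under 0.05, at most 4 a list by the smallest p, besides 4 set down by name; Cpt1b is named beyond this rule, for the muscle markers. Sequences come from RefSeq (GRCm38.p6) and GENCODE M21. Some genes of the pathway lists are not reported here. No sequence of a protein was used here.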

Additional observations from a re-analysis of the deposited data

How the results depend on the processing

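No paired analysis was possible because the groups share no replicate number. The count of members past an adjusted p of 0.05 was 0 under each of the 11 alternatives. With all libraries kept, the smallest adjusted p values in DESeq2 were 0.0583 for Cpt1a and 0.0657 for Crot. In edgeR with no filter, where 619 of 24119 genes passed, the smallest was 0.0683 for Pex11a. Scaling by library size alone moved the median log2 fold change of all tested genes from -0.010 to -0.10 and that of the mitochondrial members to -0.10, so values on that scale read against the shift. It left 2 members at an unadjusted p under 0.05 and 19 with groups that did not overlap (5 higher, 14 lower, where 15.8% and 32.4% of all tested genes did so). With single libraries left out, members at an unadjusted p under 0.05 ranged from 0 to 10, other pathway genes from 11 to 19, and members that did not overlap from 17 to 28 (17, 24, 28 and 27 without HFD 334, HFD 335, I3A 303 and I3A 305, beside 75.1%, 72.9%, 73.6% and 69.5% of all tested genes); fewer values must then be ordered. Pdk4 was lower without HFD 334, a fit whose only HFD library was HFD 335, with its muscle markers and high Pdk4 value. Acot1 was lower without I3A 303, a fit whose only I3A library was I3A 305. The medians ranged from -0.063 to 0.051 (all members), -0.066 to 0.033 (mitochondrial) and -0.069 to 0.070 (peroxisomal), and their difference, mitochondrial minus peroxisomal, from -0.045 to 0.0099. Of 220 recomputed values of 20 single genes, 14 turned sign: without single libraries the log2 fold changes ran from -0.24 to 0.073 for Ppara, -0.21 to 0.076 for Acadm, -0.078 to 0.063 for Hadha, -0.19 to 0.045 for Acat1, -0.30 to 0.11 for Bdh1, -0.99 to 0.21 for Abcd2, -0.0046 to 0.36 for Acox2, -0.069 to 0.028 for Hsd17b4, -0.11 to 0.20 for Acaa1a; Hadha was 0.0027 under upper-quartile scaling and Acaa1a -0.039 by library size alone. The lowest member in counts was Abcd2, at 56 to 118 counts a library; the others had at least 499.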
